A study of Homo sapiens with 12 samples.

Results

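The genes described here are 10 regulators and readouts of epithelial-mesenchymal transition (EMT), namely ZEB1, ZEB2, SNAI1, SNAI2, TWIST1, TWIST2, PRRX1, VIM, GRHL2 and OVOL1. They were chosen by name among the 58381 genes of the count table, and each symbol matched 1 row. Of the 10, 8 had enough counts to be tested, while GRHL2 and OVOL1 did not. RNA was sequenced from Hs578T and MDA-MB-231 cells, established human breast cancer cell lines of triple-negative type, in 12 libraries with 3 in each of 4 groups. Cells of both lines had been transduced with a doxycycline-inducible, puromycin-selected Cas9 and were starved in low serum before RNA was taken. CD44 KO cells had received guides against exons 1 and 5 of CD44, the hyaluronan receptor, and had been sorted as CD29+/CD44-, whereas CD44 WT cells had received transfection reagent only and had been sorted as CD29+/CD44+. Each KO is therefore a sorted population rather than a clone, and no source used here tells whether a group's libraries stem from independent cultures, so p-values measure only the spread between these libraries, which may be technical.

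EMT is the program by which epithelial cells give up cell junctions and polarity and take on a motile, mesenchymal form. ZEB, SNAI and TWIST proteins are transcription factors that bind E-box sequences and repress epithelial genes such as CDH1, and PRRX1 is a homeobox factor of mesenchymal cells. VIM encodes vimentin, the intermediate filament protein that serves as the usual mesenchymal readout. GRHL2 and OVOL1 are factors of epithelial cells that oppose ZEB1, and microRNAs of the miR-200 family act in the same direction by binding the messenger RNAs of ZEB1 and ZEB2.

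The miR-200 family falls into 2 groups by seed, the stretch from base 2 to base 8 that pairs with a target. The mature sequences (RefSeq, GRCh38.p14) are shown because they are the classical brake on ZEB1 and ZEB2, with the seed in capitals.
hsa-miR-200b-3p: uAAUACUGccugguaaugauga
hsa-miR-200c-3p: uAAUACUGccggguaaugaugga
hsa-miR-429: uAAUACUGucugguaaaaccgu
hsa-miR-200a-3p: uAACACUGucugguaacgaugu
hsa-miR-141-3p: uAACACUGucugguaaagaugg
The first 3 share the seed AAUACUG and the other 2 the seed AACACUG. The sequence CAGTATT, which pairs with the first seed, occurs 6 times in the 3′ untranslated region of ZEB1 and 5 times in that of ZEB2 (GENCODE v44, MANE Select transcripts, sense strand). Among regions of like length (the shorter at least 0.8 times the longer), 27.2% of 2546 hold at least 1 such match at the length of ZEB1 and 46.7% of 1209 at the length of ZEB2. At least as many matches as in the ZEB gene occur in 0.0393% and 0.0827% of them, with the ZEB gene itself counted. CAGTGTT, which pairs with the second seed, occurs 3 times in ZEB1 and 4 times in ZEB2, and at least once in 29.1% and 51.9% of regions of like length. As many or more occur in 0.668% and 1.24%. Of the remaining 8 genes, SNAI2 holds 1 match to the first seed and GRHL2 holds 1 to the second. One site of each ZEB gene is printed with the match in capitals, and the ZEB1 site lies on the plus strand at chr10:31528493-31528514 and the ZEB2 site on the minus strand at chr2:144388631-144388652 (GRCh38).
ZEB1 site: tgatttttacctatCAGTATTa
ZEB2 site: tgaagcacccatgtCAGTATTa
A match is a description of letters and was not measured as a binding site here. MIR200A, MIR200B, MIR200C, MIR141 and MIR200CHG, the host transcript of MIR200C and MIR141, had 0 counts in all 12 libraries, and MIR429 had 1 count in a single MDA-MB-231 CD44 WT library. These libraries were made from polyadenylated RNA and do not measure the mature microRNAs, so these zeros concern the gene rows only.

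The libraries held from 10257586 to 19725543 counts. CD44 itself had a mean of 507 CPM (fragment counts scaled by library size and TMM factor) in Hs578T CD44 WT and 27.3 CPM in its CD44 KO, and in MDA-MB-231 362 CPM in CD44 WT and 34.2 CPM in CD44 KO, with no overlap between groups. The 3 MDA-MB-231 CD44 WT libraries are replicate 1, replicate 3 and a library whose number could not be settled, called unnumbered here. Replicate 1 of that group stood apart from the others. Its chi-square per degree of freedom was 32.6 and 21.4 against the others, which differed from each other by 6.14. By smaller values, MDA-MB-231 CD44 KO replicate 1 also stood apart (12.9 and 16.1, against 6.22 between the others). So did Hs578T CD44 WT replicate 3 (15.1 and 9.87, against 4.68). In the order named, these libraries are numbered 11, 12 and 9 in the descriptions. Hs578T CD44 KO replicate 1, numbered 10, did not stand apart from its group. Whether these libraries shared a batch was not tested. CDH1 was low in both lines and EPCAM in Hs578T, while a luminal list that includes keratins was not low. Summed over GATA3, FOXA1, KRT8, KRT18 and KRT19, it read from 965 to 1003 CPM in Hs578T CD44 WT. In MDA-MB-231 CD44 WT it read from 1177 to 1467 CPM. CDH1, or E-cadherin, had between 0 and 14 counts in a library, and EPCAM had 4 counts over all Hs578T libraries but from 13.7 to 22.2 CPM in MDA-MB-231. CDH2, or N-cadherin, showed the reverse, ranging over Hs578T libraries from 128 to 175 CPM, with at most 0.624 CPM in a MDA-MB-231 library. FN1, or fibronectin, was 16.7-fold higher in Hs578T CD44 WT than in MDA-MB-231 CD44 WT, where it read from 219 to 320 CPM. Of the mesenchymal readouts VIM was therefore abundant in both lines and CDH2 in Hs578T only. Of the 3 receptors that define breast cancer subtypes, ERBB2 alone was above a mean of 1 CPM, and PGR was at 0 in every library.

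The levels of the EMT regulators were compared between genes per kilobase of exon, since longer genes collect more fragments. The length used covers all annotated exons of a gene, 25058 nt for ZEB2, 8650 nt for ZEB1 and 1686 nt for SNAI1. Lengths of the transcripts present were not measured, so the order between genes, that of ZEB2 above all, depends on this divisor. VIM stood far above the rest, with group means between 749 and 1281 CPM per kb. In Hs578T CD44 WT cells the factors followed in the order SNAI2 (16.3 CPM per kb), ZEB1 (6.86), TWIST2 (6.15), PRRX1 (2.14), SNAI1 (1.67), ZEB2 (0.953) and TWIST1 (0.723). In MDA-MB-231 CD44 WT cells ZEB1 led with 8.96 CPM per kb, ahead of SNAI2 (6.37), SNAI1 (2.65), ZEB2 (0.487) and PRRX1 (0.107), and both TWIST genes were at 0. In Hs578T CD44 KO cells TWIST1, at 12.4 CPM per kb, took the place behind SNAI2 at 23.0.

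**Figure D1:**
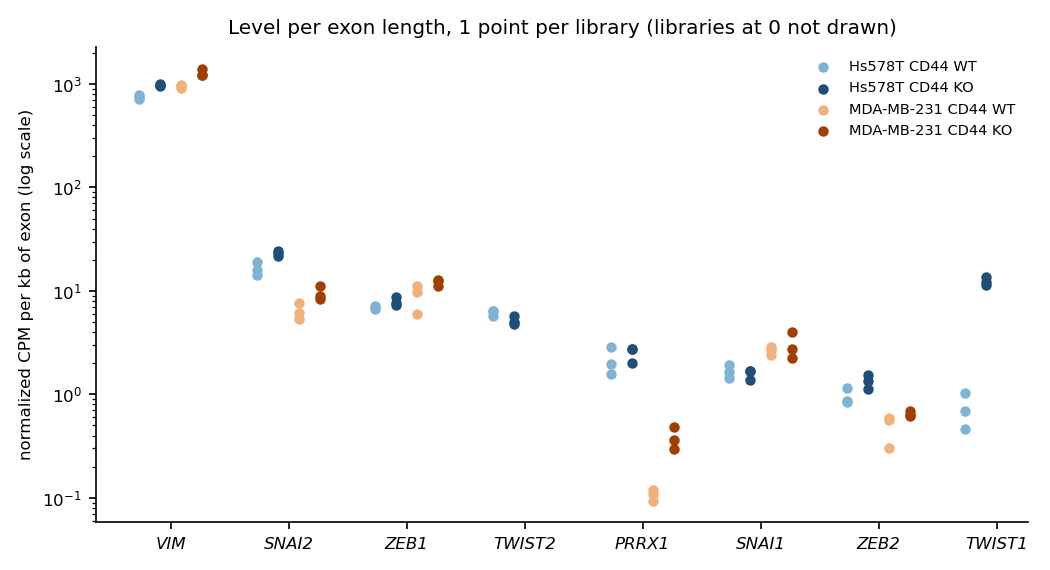
Normalized CPM per kilobase of exon on a log axis for the 8 tested EMT regulators, 1 point per library, coloured by group. VIM lies far above the factors, TWIST1 is the factor whose level in Hs578T differs most between WT (0.723 CPM per kb) and KO (12.4), and the TWIST genes have no points in MDA-MB-231 because all 6 libraries are at 0.

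Unedited cells of the lines were compared first. Of the 8 tested genes, 5 were higher in Hs578T CD44 WT than in MDA-MB-231 CD44 WT and 1 was lower at an adjusted p of at most 0.01 (edgeR quasi-likelihood test with Benjamini-Hochberg adjustment over 15836 genes), against 61.5% of all genes tested that passed in either direction, 32.2% higher and 29.4% lower. ZEB2, SNAI2, TWIST1, TWIST2 and PRRX1 were the higher genes and VIM the lower one. TWIST1 and TWIST2 had 0 counts in MDA-MB-231 and entered the test only through Hs578T libraries. Their calls as higher in Hs578T therefore follow largely from the filter on counts. PRRX1 was 19.8-fold higher in Hs578T (log2 difference 4.31 ± 0.29 SE, adjusted p = 3.55e-09). SNAI2 was 2.56-fold higher (1.36 ± 0.15, adjusted p = 9.52e-07) and ZEB2 1.95-fold higher (0.97 ± 0.21, adjusted p = 6.89e-04), and the libraries of the lines did not overlap for either. VIM was lower in Hs578T by a log2 difference of -0.34 ± 0.079 (adjusted p = 0.00113). Without TMM, on library size alone, that difference was -0.22 with an adjusted p of 0.0126 and no longer passed. ZEB1 (-0.39 ± 0.16, adjusted p = 0.0424) and SNAI1 (-0.67 ± 0.23, adjusted p = 0.0173) did not pass the threshold. Without MDA-MB-231 CD44 WT replicate 1, the ZEB1 difference was -0.60 with an adjusted p of 4.85e-05 and passed.

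After CD44 KO, 2 of the 8 tested genes were called in Hs578T, and 2 of the 6 with counts were called in MDA-MB-231. TWIST1 and TWIST2 had 0 counts in MDA-MB-231 and could not be called there. All calls were in the direction of higher expression, and none was lower. In Hs578T these were TWIST1 and VIM, against 3.64% of all genes called higher and 3.86% called lower there (7.51% in all), and in MDA-MB-231 they were PRRX1 and VIM, against 1.97% called higher and 2.65% called lower (4.62% in all). The median log2 fold change over the 8 genes was 0.31 in Hs578T, beside -0.0018 over all genes at a mean of 1 CPM or more in that line. For the 6 genes with such a level in MDA-MB-231 the median was 0.44, beside -0.015. The middle values there were those of VIM (0.43) and ZEB1 (0.44), both on chromosome 10. Their neighbours within 5 Mb had medians of 0.48 and 0.46 in MDA-MB-231, so this median cannot be told apart from that of the region. At an unadjusted p under 0.05, which 27.4% of all genes reached in Hs578T and 23.4% in MDA-MB-231 in either direction, 4 were higher and 0 lower in each line, and by DESeq2 2 were called for Hs578T cells and 3 for MDA-MB-231 cells, each of them higher. The KO libraries lay above all WT libraries for 4 genes in Hs578T, where 18.7% of all genes did so, and for 5 genes in MDA-MB-231, where 11.8% did.

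**Figure D2:**
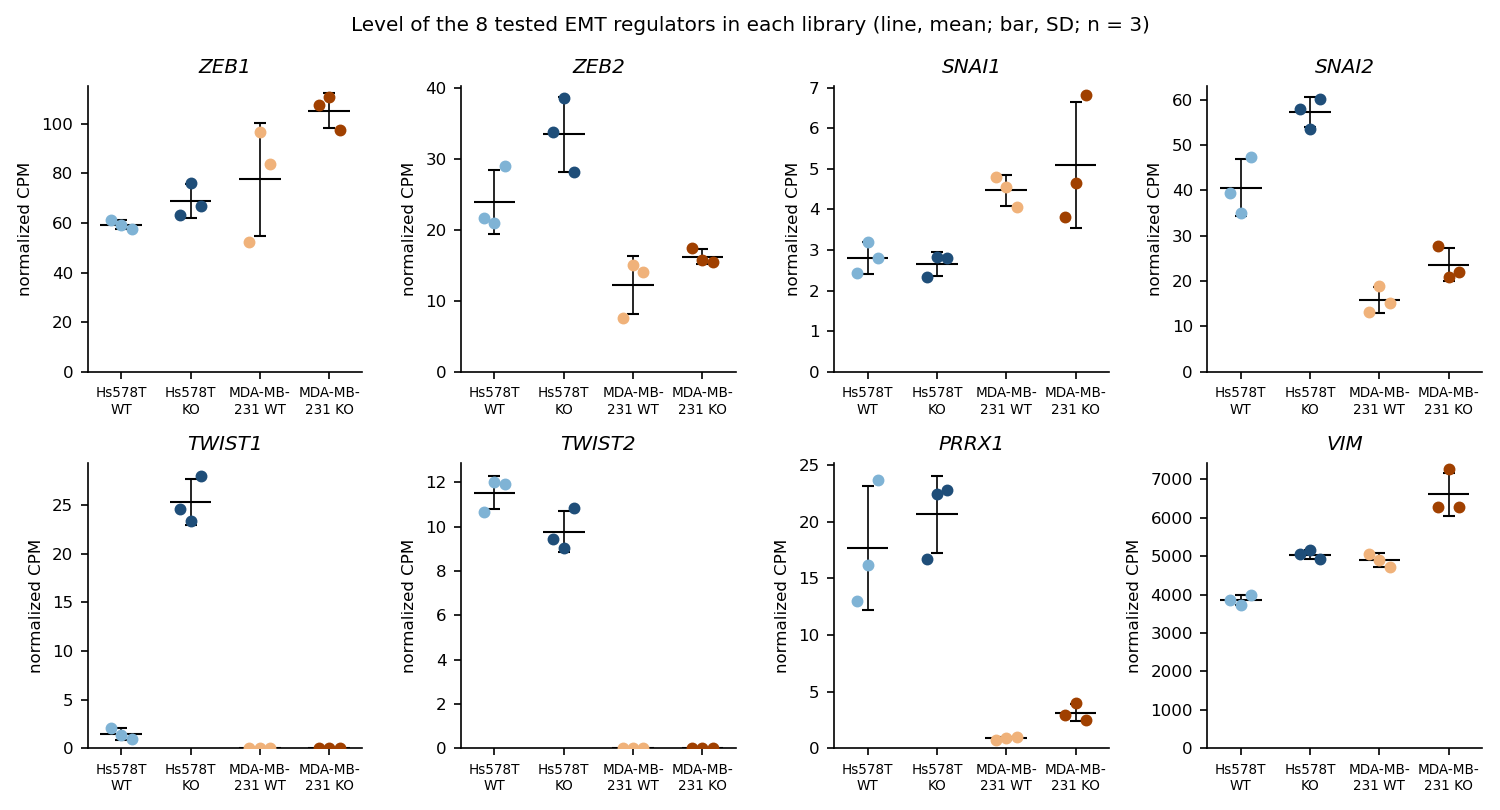
Normalized CPM of the 8 tested EMT regulators in each of the 12 libraries (points), with the mean and SD of each group of 3. VIM rises in KO in both lines, TWIST1 rises in Hs578T only and is at 0 in MDA-MB-231, and PRRX1 is low in MDA-MB-231 and higher in its KO libraries.

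TWIST1, a basic helix-loop-helix (bHLH) factor of mesoderm and neural crest, showed the largest change of the 10 genes. It is listed as ENSG00000122691.12 on the minus strand of chromosome 7 from 19020991 to 19117672 (GRCh38). In Hs578T CD44 WT it stood at 2.08, 1.40 and 0.931 CPM, from 30, 17 and 11 counts, and in CD44 KO at 24.5, 23.4 and 28 CPM, from 306, 379 and 328 counts. All KO libraries lay far above all WT libraries. In bulk RNA a larger share of cells with TWIST1 and more TWIST1 RNA per cell cannot be told apart. The log2 fold change was 4.07 ± 0.24 (95% interval 3.54 to 4.60, 16.8-fold, adjusted p = 1.10e-06). Over the leave-one-out fits the log2 fold change ranged from 3.84 to 4.42 and the call was kept in all 12 fits. In MDA-MB-231 TWIST1 had 0 counts in all 6 libraries, and its level in Hs578T was therefore at least 17.7-fold higher in WT and at least 341-fold higher in KO, taking 3 counts over the group as the floor.

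TWIST2, the closest relative of TWIST1, did not move with it. TWIST2 (ENSG00000233608.3, plus strand of chromosome 2, 238848032 to 238910543) read 10.7, 12 and 11.9 CPM in Hs578T CD44 WT and 9.47, 9.06 and 10.8 CPM in CD44 KO. The groups overlapped and the log2 fold change was -0.24 ± 0.16 (95% interval -0.60 to 0.12, adjusted p = 0.400). Its neighbours were low as well in Hs578T CD44 KO. Of 49 genes within 5 Mb at a mean of 1 CPM or more, 44 had a negative log2 fold change, with a median of -0.20. The part of this region in the TWIST2 value was not tested. TWIST2 also had 0 counts in all MDA-MB-231 libraries, which puts Hs578T at least 135-fold higher in WT and at least 132-fold higher in KO. In Hs578T CD44 WT cells TWIST2 was thus the more abundant of the pair per kilobase of exon, and in CD44 KO cells TWIST1 was.

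Dimer partners of TWIST proteins and their ID antagonists were counted beside them, since bHLH factors act as pairs and ID proteins sequester the partners. All 7 genes of this list were tested. In Hs578T 1 was called higher and 1 lower, and in MDA-MB-231 none was called higher and 1 was called lower. Over all genes 7.51% were called in Hs578T and 4.62% in MDA-MB-231, in either direction. TCF4, an E protein that pairs with TWIST1, stood at 6.59, 11.7 and 13.1 CPM in Hs578T CD44 WT and at 93.5, 104 and 109 CPM in CD44 KO, a log2 fold change of 3.30 ± 0.21 (adjusted p = 9.74e-08). In MDA-MB-231 TCF4 remained between 1.46 and 3.81 CPM, its groups overlapped, and the difference of its KO effects between lines was 2.78 ± 0.41 (adjusted p = 5.33e-04). ID2 fell by 1.04 ± 0.21 on the log2 scale in Hs578T (adjusted p = 0.00379). ID3 fell by 0.89 ± 0.18 in MDA-MB-231 (adjusted p = 0.00448). The median log2 fold change of the list stood at 0.098 for Hs578T and at 0.11 for MDA-MB-231, over 6 genes at 1 CPM or more in each line.

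VIM was the member called in both lines. It is listed as ENSG00000026025.15 on the plus strand of chromosome 10 from 17228259 to 17237593. In Hs578T CD44 WT it read 3865, 3730 and 3991 CPM and in CD44 KO 5048, 5157 and 4919 CPM. In MDA-MB-231 CD44 WT it read 5067, 4908 and 4713 CPM, for replicate 1, the unnumbered library and replicate 3, and in CD44 KO 6271, 7262 and 6293 CPM. KO libraries lay above WT libraries in both lines, and Hs578T CD44 KO reached the level of MDA-MB-231 CD44 WT, with which it overlapped. The log2 fold change was 0.38 ± 0.079 in Hs578T (1.31-fold, adjusted p = 0.00386) and 0.43 ± 0.079 in MDA-MB-231 (1.35-fold, adjusted p = 0.00253). The difference between these effects was -0.048 ± 0.11, with a 95% interval from -0.29 to 0.19. Being called higher in both lines was rare, with 24 genes or 0.152% of those tested. These calls were near the threshold. Leaving out 1 library moved the adjusted p up to 0.0223 in Hs578T, where 4 of the 12 fits lost the call (without CD44 WT replicate 1 or 2 or CD44 KO replicate 1 or 2), and up to 0.0224 in MDA-MB-231, where the fits without CD44 WT replicate 3 or CD44 KO replicate 2 lost it, while the log2 fold change stayed between 0.36 and 0.48. The call was also lost with the replicate number as a block (adjusted p = 0.0131 and 0.0320) and, in MDA-MB-231, with that line fitted alone (0.0224).

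PRRX1, a homeobox factor of limb and connective tissue mesenchyme, was called in MDA-MB-231. It is listed as ENSG00000116132.11 on the plus strand of chromosome 1 from 170662728 to 170739419. In MDA-MB-231 CD44 WT it stood at 0.771, 0.891 and 0.973 CPM (9, 10 and 12 counts), and in CD44 KO at 2.97, 3.97 and 2.47 CPM (35, 75 and 25 counts). All KO libraries lay above the WT libraries, at a level that stayed low against Hs578T. The log2 fold change was 1.86 ± 0.34 (95% interval 1.13 to 2.60, 3.64-fold, adjusted p = 0.00283). The call was lost without CD44 WT replicate 1 (adjusted p = 0.0154), CD44 WT replicate 3 (0.0118) or CD44 KO replicate 2 (0.0228), where the log2 fold change was 1.62, the lowest of the 12 fits. In Hs578T PRRX1 read 13, 16.2 and 23.7 CPM in CD44 WT and 16.7, 22.4 and 22.8 CPM in CD44 KO, which overlapped (0.23 ± 0.20, adjusted p = 0.508). The difference of the KO effects between lines was -1.63 ± 0.40, with an adjusted p of 0.0187, and did not pass. By edgeR none of the 6 genes with counts in both lines was called for such a difference. Over all genes 4.12% were called, 2.33% higher and 1.79% lower in Hs578T. TWIST1 and TWIST2 had 0 counts in MDA-MB-231, so this test could not call them and does not bear on them. Of the 6, only PRRX1 reached an unadjusted p under 0.05, beside 24.6% of all genes. It was also the only one at an adjusted p of at most 0.05, beside 10.5%, and DESeq2 called it (adjusted p = 0.00315).

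**Figure D3:**
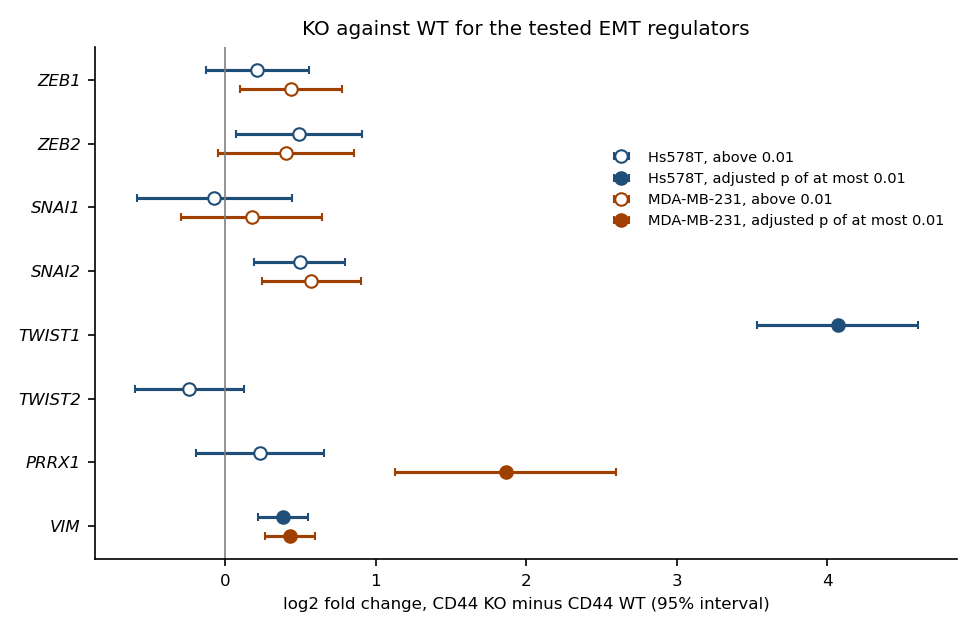
Log2 fold change of CD44 KO against CD44 WT (points) with its 95% interval for the 8 tested EMT regulators in Hs578T and MDA-MB-231, filled where the adjusted p is at most 0.01. TWIST1 in Hs578T (4.07) and PRRX1 in MDA-MB-231 (1.86) lie far to the right, VIM is filled in both lines, and the TWIST genes have no point in MDA-MB-231, where both groups are at 0.

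SNAI2, or Slug, a zinc finger repressor, is listed as ENSG00000019549.10 on the minus strand of chromosome 8 from 48917604 to 48921740. It read 39.4, 35 and 47.3 CPM in Hs578T CD44 WT and 58.0, 53.5 and 60.1 CPM in CD44 KO. In MDA-MB-231 it read 13.3, 19.0 and 15.2 CPM in CD44 WT and 27.8, 21 and 22 CPM in CD44 KO. The KO libraries lay above the WT libraries in each line, and no groups overlapped, with both Hs578T groups above both MDA-MB-231 groups. The log2 fold changes of 0.50 ± 0.14 in Hs578T and 0.57 ± 0.15 in MDA-MB-231 had adjusted p of 0.0280 and 0.0272 and did not pass at 0.01. Averaged over both lines, a contrast added after these values were seen, the effect was 0.53 ± 0.10 (95% interval 0.31 to 0.76, adjusted p = 0.00361) and passed, beside 5.1% of all genes that passed in either direction and 2.2% that passed as higher. Over the leave-one-out fits its adjusted p ranged from 0.00150 to 0.0123, and 6 of the 12 lost the call, those without Hs578T CD44 WT replicate 1 or 2, Hs578T CD44 KO replicate 1 or 3, MDA-MB-231 CD44 WT replicate 3 or MDA-MB-231 CD44 KO replicate 1. In the same averaged contrast VIM (0.41 ± 0.056, adjusted p = 2.15e-04) and PRRX1 (1.05 ± 0.20, adjusted p = 0.00317) passed, and ZEB1, ZEB2 and SNAI1 did not. The averaged call of PRRX1 was lost without MDA-MB-231 CD44 WT replicate 1 (adjusted p = 0.0109) or CD44 KO replicate 2 (0.0161).

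SNAI1, or Snail, a zinc finger repressor related to SNAI2, passed the test in neither line. SNAI1 (ENSG00000124216.3, plus strand of chromosome 20, 49982999 to 49988886) read 2.43, 3.21 and 2.79 CPM in Hs578T CD44 WT and 2.33, 2.84 and 2.81 CPM in CD44 KO. In MDA-MB-231 it read 4.80, 4.54 and 4.06 CPM in CD44 WT and 3.81, 4.66 and 6.81 CPM in CD44 KO. The groups overlapped within each line, and the KO effects of -0.071 ± 0.24 and 0.18 ± 0.22 had 95% intervals from -0.59 to 0.44 and from -0.29 to 0.64. Leaving out 1 library moved these values between -0.17 and 0.036 and between -0.051 and 0.34.

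ZEB1 (ENSG00000148516.21, plus strand of chromosome 10, 31318495 to 31529814) is the zinc finger homeobox repressor most often tied to CDH1 silencing. In Hs578T it read 61.2, 59.3 and 57.4 CPM in CD44 WT and 63.1, 76.3 and 66.8 CPM in CD44 KO. In MDA-MB-231 CD44 WT it read 52.3 CPM in replicate 1, 96.5 CPM in the unnumbered library and 83.9 CPM in replicate 3, and CD44 KO read 107, 111 and 97.3 CPM. The KO libraries lay above the WT libraries in both lines, by a margin of less than 1 CPM in MDA-MB-231 between the highest WT and the lowest KO library. The log2 fold changes were 0.21 ± 0.16 (adjusted p = 0.437) and 0.44 ± 0.16 (adjusted p = 0.10), neither past the threshold. Without MDA-MB-231 CD44 WT replicate 1 the latter was 0.22, and it ranged up to 0.63 over the leave-one-out fits.

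ZEB2 (ENSG00000169554.19, minus strand of chromosome 2, 144364364 to 144524583) is the paralog of ZEB1. It read 21.6, 21 and 29.0 CPM in Hs578T CD44 WT and 33.7, 38.5 and 28.1 CPM in CD44 KO, and these groups overlapped. In MDA-MB-231 it read 7.54, 15 and 14.1 CPM in CD44 WT and 17.4, 15.7 and 15.4 CPM in CD44 KO, where the KO libraries lay above the WT libraries and replicate 1 of CD44 WT was again the lowest. The log2 fold changes were 0.49 ± 0.20 (adjusted p = 0.115) and 0.40 ± 0.21 (adjusted p = 0.272). Without MDA-MB-231 CD44 WT replicate 1 the latter was 0.15. The antisense gene ZEB1-AS1, counted by strand, had log2 fold changes of 0.47 ± 0.14 in Hs578T (adjusted p = 0.0393) and 0.21 ± 0.15 in MDA-MB-231 (adjusted p = 0.448), and VIM-AS1 had 0.22 ± 0.17 and 0.0084 ± 0.15. These were the only 2 of the 12 microRNA, host and antisense genes with enough counts to test, and none was called by edgeR or DESeq2, while 1 reached an unadjusted p under 0.05 for Hs578T and 0 did for MDA-MB-231.

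The epithelial factors among the 10 genes were near the limit of detection. GRHL2 (ENSG00000083307.11, plus strand of chromosome 8, 101492432 to 101669726) had 3 counts over the Hs578T CD44 WT libraries, 2 over the CD44 KO libraries and 0 in MDA-MB-231. These give 0.0781 CPM (exact Poisson 95% interval 0.0161 to 0.228) and 0.0495 CPM (0.00599 to 0.179), intervals that cover counting error only. OVOL1 (ENSG00000172818.9, plus strand of chromosome 11, 65787022 to 65797219) had 0 counts in all 12 libraries, which leaves a 95% upper limit (exact Poisson) of 0.105 CPM in the shallowest group, MDA-MB-231 CD44 WT. No difference of GRHL2 or OVOL1 between groups was detectable at this depth.

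VIM and ZEB1 lie 14.1 Mb apart on chromosome 10, in a stretch where genes as a whole were higher in MDA-MB-231 CD44 KO. This stretch was looked at after the values of VIM and ZEB1 were seen. Among 139 genes of the first 40 Mb of the chromosome at a mean of 1 CPM or more in MDA-MB-231, 120 had a positive and 19 a negative log2 fold change, with a median of 0.36, and 25.9% were called higher. On the remainder of the chromosome the median was 0.086 over 403 genes and 6.45% were called higher. Within 5 Mb of VIM, 36 of 37 genes were higher with a median of 0.48, beside 0.43 for VIM itself, and within 5 Mb of ZEB1, 39 of 40 were higher with a median of 0.46, beside 0.44 for ZEB1. By library, the median over the 139 genes against the WT mean was -0.059, 0.046 and 0.011 in the WT libraries and 0.39, 0.37 and 0.34 in the KO libraries, while the median over all genes lay between -0.0092 and 0.018 in these 6 libraries. In Hs578T the first 40 Mb had a median of 0.081 and 5.11% of 137 genes called higher, and VIM, at 0.38, exceeded the median of 0.058 of its 38 neighbours within 5 Mb. The part of this stretch in the MDA-MB-231 values of VIM and ZEB1 was not tested, and gene copy number was not measured. PRRX1 on chromosome 1, at 1.86 in MDA-MB-231, lay among 45 genes within 5 Mb with a median of -0.056, and SNAI2 on chromosome 8, at 0.57, among 11 genes with a median of 0.0092. In Hs578T SNAI2, at 0.50, lay among 17 genes with a median of 0.22, of which 14 were higher.

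**Figure D4:**
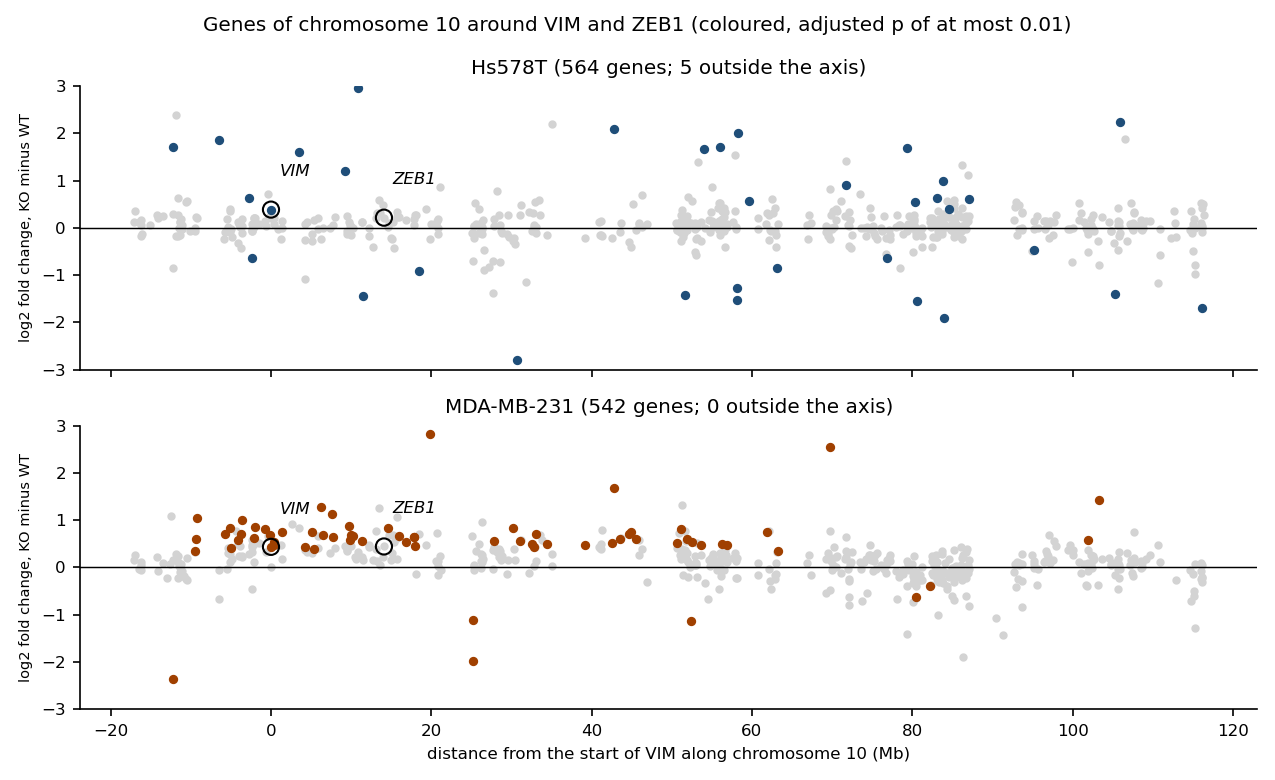
Log2 fold change of CD44 KO against CD44 WT (y axis) for genes of chromosome 10 at a mean of 1 CPM or more, by distance from the start of VIM in Mb (x axis), coloured where the adjusted p is at most 0.01. In MDA-MB-231 the genes around VIM and ZEB1 lie above 0 as a group (median 0.48 within 5 Mb of VIM), and in Hs578T they scatter around 0 (median 0.058).

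Genes that the EMT factors act on or with were counted from lists chosen by known role. Over all genes tested, 3.64% were called higher and 3.86% lower in Hs578T, and 1.97% and 2.65% in MDA-MB-231. Of 30 epithelial genes (junction, polarity and keratin genes), 22 were tested. In Hs578T 1 was called higher and 2 lower, with a median log2 fold change of -0.34, and in MDA-MB-231 none was called higher and 2 lower, with a median of -0.30. Among those at a mean of 1 CPM or more, 13 of 16 had a negative value in Hs578T and 17 of 18 in MDA-MB-231, beside 7048 of 14031 and 6934 of 13296 over all genes. TJP3, a tight junction scaffold, fell by 2.1 ± 0.34 on the log2 scale in Hs578T (adjusted p = 6.65e-04), and CLDN4, a tight junction claudin, fell by 1.35 ± 0.22 (adjusted p = 5.67e-04). CDS1, a phospholipid synthesis enzyme of epithelial cells, rose by 1.42 ± 0.27 (adjusted p = 0.00209). PKP3, a desmosomal plakophilin, fell by 1.45 ± 0.11 in MDA-MB-231 (adjusted p = 7.17e-07), and the polarity gene LLGL2 fell by 1.31 ± 0.15 (adjusted p = 7.13e-05). The epithelial factors list had 7 of 11 genes tested, of which 1 rose and 1 fell in Hs578T and 2 fell in MDA-MB-231. GRHL1, a grainyhead factor, fell in both lines, by 0.80 ± 0.14 in Hs578T (adjusted p = 0.00126) and by 1.00 ± 0.19 in MDA-MB-231 (adjusted p = 0.00305). Of the epithelial splicing regulators, ESRP1 rose by 0.97 ± 0.21 in Hs578T (adjusted p = 0.00492) and stood at 0.46 ± 0.39 in MDA-MB-231 (adjusted p = 0.526). ESRP2 had a log2 fold change of -1.28 ± 0.18 in MDA-MB-231 (adjusted p = 3.25e-04) and of 0.68 ± 0.59 in Hs578T (adjusted p = 0.539). The difference between lines passed for neither (adjusted p = 0.540 and 0.0593).

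Mesenchymal genes were called in both directions, where 7.51% of all genes were called in Hs578T and 4.62% in MDA-MB-231. Of 37 listed, 35 were tested, of which 5 were called higher and 4 lower in Hs578T (median log2 fold change 0.0063) and 2 higher and 3 lower in MDA-MB-231 (median 0.16 over 24 genes). In Hs578T COL1A2, a fibrillar collagen chain, fell by 5.32 ± 0.22 on the log2 scale (adjusted p = 9.88e-09), while FAP, a fibroblast surface protease, rose by 4.27 ± 0.43 (adjusted p = 2.39e-05), COL3A1 rose by 2.74 ± 0.35 (adjusted p = 7.19e-05) and the proteoglycan LUM rose by 2.17 ± 0.29 (adjusted p = 5.27e-04). In MDA-MB-231 the secreted ligand WNT5A fell by 3.21 ± 0.46 (adjusted p = 3.65e-04) and the mesenchymal cadherin CDH11 fell by 2.08 ± 0.28 (adjusted p = 2.20e-04). TGFBI, a matrix protein named for its induction by TGF-beta, rose there by 1.78 ± 0.24 (adjusted p = 2.62e-04), and THBS1, or thrombospondin, by 1.17 ± 0.16 (adjusted p = 2.43e-04). The classical readouts did not pass, with CDH2 at 0.23 ± 0.11 (adjusted p = 0.208) and FN1 at -0.33 ± 0.18 (adjusted p = 0.257) in Hs578T and FN1 at -0.0082 ± 0.18 in MDA-MB-231. EPCAM stood at -0.073 ± 0.20 in MDA-MB-231 (adjusted p = 0.895). CDH1 was too low to test, with 26 and 19 counts over the WT and KO libraries of Hs578T and 11 and 4 over those of MDA-MB-231. Among markers of other cells, PTPRC, the leukocyte antigen CD45, went from a mean of 0.369 to 3.78 CPM in Hs578T while the remaining 4 leukocyte markers stayed under a mean of 1 CPM, and the summed basal list of KRT5, KRT14, KRT17 and TP63 went from between 12.7 and 29.8 CPM to between 1.85 and 3.41 CPM. The summed fibroblast list, which shares FAP and LUM with the mesenchymal list, went from between 327 and 349 CPM to between 375 and 389 CPM in Hs578T. Of its 6 markers 5 were tested there, of which 2 were called higher and 1 was called lower. The part of these in the Hs578T results was not tested.

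**Figure D5:**
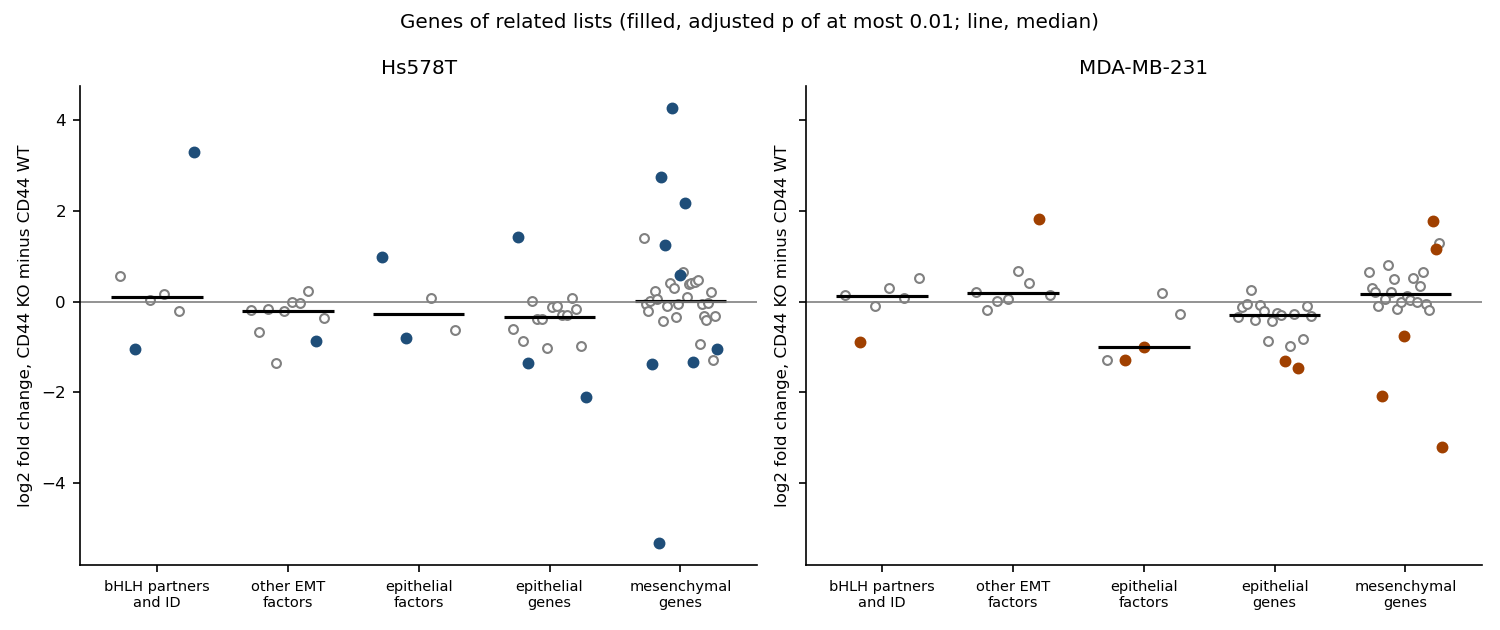
Log2 fold change of CD44 KO against CD44 WT for genes of 5 lists at a mean of 1 CPM or more in Hs578T (left) and MDA-MB-231 (right), 1 point per gene, filled where the adjusted p is at most 0.01, with the median of each list as a line. The median of the epithelial genes lies below 0 in both lines (-0.34 and -0.30) and that of the mesenchymal genes near 0 (0.0063 and 0.16), with called genes in both directions.

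In each of the remaining lists at most 1 gene was called per line. Of all genes tested, 7.51% were called in Hs578T and 4.62% in MDA-MB-231, and no list was tested against these shares. Of 15 other EMT factors 11 were tested, and TBX3, a T-box repressor, was the single call in each line. It fell by 0.87 ± 0.16 on the log2 scale in Hs578T (adjusted p = 0.00161) and rose by 1.83 ± 0.23 in MDA-MB-231 (adjusted p = 1.29e-04). Among 14 tested corepressors that work with SNAI and ZEB proteins, none was called in Hs578T by edgeR or DESeq2, with 0 higher and 4 lower at an unadjusted p under 0.05, and in MDA-MB-231 the Polycomb gene BMI1, which itself lies 5.09 Mb from VIM, rose by 0.75 ± 0.11 (adjusted p = 4.59e-04). Of 13 tested regulators of SNAI protein stability, PRKD1, a kinase that phosphorylates Snail, rose by 1.54 ± 0.19 in Hs578T (adjusted p = 2.75e-04), and none was called in MDA-MB-231 by edgeR or DESeq2, with 2 higher and 1 lower at an unadjusted p under 0.05. Of 15 tested upstream signals, NFKB1 fell by 0.39 ± 0.087 in Hs578T (adjusted p = 0.00685), and none was called in MDA-MB-231 by either tool, with 1 in each direction at an unadjusted p under 0.05. Among filament partners of vimentin, 4 of 6 were tested, of which nestin (NES) fell by 1.88 ± 0.25 in Hs578T (adjusted p = 1.28e-04) and synemin (SYNM) rose by 0.72 ± 0.12 in MDA-MB-231 (adjusted p = 0.00118).

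The genes whose pattern over the 12 libraries was most like that of each called member were named by Pearson correlation of log2 CPM centred on the mean of each line. The points share their libraries and line means, and no test was made. For TWIST1 they were KCNG1 (0.997), VAV3 (0.996) and LINC00879 (0.996), with log2 fold changes of 0.48, 2.97 and 1.92 in Hs578T. In MDA-MB-231 TWIST1 had 0 counts and each of these genes had a log2 fold change of 0. The correlations with TWIST1 therefore rest on the Hs578T libraries. For PRRX1 they were ADK (0.959), TPGS2 (0.951) and ZNF516 (0.945), and for VIM CDKN1A (0.953), LARP6 (0.947) and LRRC49 (0.937).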

How the data were processed

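Poly-A selected, strand-specific RNA-seq libraries (12, read as pairs on 1 lane) were aligned by the authors to GRCh38 with HISAT2 2.1.0 and counted per GENCODE v28 gene with featureCounts 1.6.2, keeping properly placed pairs with a mapping quality of at least 10. The deposited values are raw counts, from 10257586 to 19725543 per library. Of 58381 genes, those above 1 CPM in at least 2 libraries and with at least 300 nt of exon were tested (15836). CPM were computed here with TMM factors. All 12 libraries were fitted together with 4 group means (edgeR 4.0.16 quasi-likelihood test, limma 3.58.1, R 4.3.3), and Benjamini-Hochberg adjusted p of at most 0.01 was called. DESeq2 1.42.0, other scalings and filters, each line alone, replicate blocks and leaving out each library were alternatives. Errors after ± are SE, and intervals are 95%. A single gene compared by exact permutation of 3 against 3 libraries cannot go below p = 0.1, so none was run. The steps were tested on simulated data.

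The 10 genes and all lists were chosen with earlier results of these data known. Named genes are the 10 members, CD44, CDH1, EPCAM, CDH2 and FN1, and from every other list up to 4 called genes per line with the largest fold changes. For each member called after KO, the 3 genes most correlated with it were named. A list median covers its genes at a mean of 1 CPM or more in that line. One MDA-MB-231 CD44 WT column could be tied to its group but not to a replicate number. MicroRNA seed matches were searched on the sense strand of 18780 3′ untranslated regions.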

Additional observations from a re-analysis of the deposited data

Results flagged for a closer look

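For 12 of the 130 tested genes of the lists by role, beside 4.12% of all genes, the KO effect differed between the lines by a test of the difference itself, the interaction term of the edgeR fit (Hs578T minus MDA-MB-231, adjusted p of at most 0.01). Beyond the chi-square values above, groups of 3 libraries were not screened for a sample far from the others. The bHLH partner TCF4 differed by 2.78 on the log2 scale (adjusted p = 5.33e-04) and the antagonist ID3 by 0.927 (0.00848). The T-box factor TBX3 differed by -2.69 (adjusted p = 2.10e-05), with a fall in Hs578T and a rise in MDA-MB-231. Among epithelial genes CLDN4 differed by -1.3 (adjusted p = 0.00781) and PKP3 by 1.52 (9.28e-06). Among mesenchymal genes TNC differed by -2.57 (adjusted p = 0.00744), TGFBI by -2.18 (3.22e-04), THBS1 by -1.2 (0.00303) and FSTL1 by 0.708 (0.00985). BMI1, on chromosome 10, differed by -1.04 (adjusted p = 7.11e-04). The filament partners NES and SYNM differed by -2.75 (adjusted p = 1.56e-04) and -1.05 (0.00115). Of 11 further genes tested as markers of other cells, 2 differed, PTPRC by 5.66 (adjusted p = 0.00116) and KDR by 3.04 (0.00882). CD44 itself differed by -0.815 (adjusted p = 0.00198) and HDAC9, the neighbour of TWIST1, by 6.2 (1.63e-07). TNC and FSTL1 are named here for this test alone, after their values were seen.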

How the results depend on the processing

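Of 686 alternative values for the 10 genes' log2 differences, 637 kept direction and side of the threshold, 21 lost a call, 15 gained one and 13 turned sign, all 13 of them near 0. TWIST1 in Hs578T kept its call throughout. Genes called in Hs578T numbered 1189, with 1984 under no filter on low counts, 2253 when adjusted p up to 0.05 passed and from 605 to 1685 with 1 library left out. In MDA-MB-231 they numbered 731, with 1370 under no filter, 1138 by DESeq2, 315 with the line alone, 436 with the replicate block, 1518 at 0.05 and from 355 to 763 with 1 library left out. For the difference between lines they numbered 653, with 1373 under no filter, 1177 by DESeq2, 1670 at 0.05 and from 396 to 804 with 1 left out. Between unedited lines they numbered 9742 and from 8669 to 9827.

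Members called in Hs578T were 2, with 4 under no filter, 1 with the replicate block and from 1 to 2 with 1 library left out. In MDA-MB-231 they were 2, with 4 under no filter, 1 with the line alone and from 0 to 2 with 1 left out. For the difference between lines 0 were called, with 1, PRRX1, under no filter, by DESeq2 and at 0.05. With 1 left out from 0 to 1 were called (PRRX1 without Hs578T CD44 WT replicate 1, -1.81, adjusted p = 0.00956). TWIST1 and TWIST2, without counts in MDA-MB-231, could not be called for this difference. Between unedited lines 6 were called, and from 6 to 7. For the averaged contrast 3 were called, 5 under no filter and from 2 to 3 with 1 left out. The cause of these changes was not tested.

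The replicate block, which leaves out the unnumbered library, gave VIM 0.38 (adjusted p = 0.0131) in Hs578T and 0.41 (0.0320) in MDA-MB-231, and called SNAI2 in MDA-MB-231 (0.80, 0.00642). Same-numbered libraries did not deviate together (correlations from -0.115 to 0.164, 1 of 15 pairs over 0.1), so the numbers were not taken to pair the samples. Library numbers in the descriptions, taken in runs of 4, gave from -0.00115 to 0.164, with 6 of 18 pairs over 0.1. Their median was 0.0636, beside 0.00793 by replicate number. With these runs as a block, 1305 genes were called in Hs578T and 824 in MDA-MB-231, beside 1189 and 731 without it. Members called remained 2 in each line. Whether libraries of a run shared a batch was not tested. VIM in MDA-MB-231 with the line alone was 0.45 (0.0224). SNAI2 passed in Hs578T with the line alone (0.50, 0.00835) and in MDA-MB-231 by DESeq2 (0.59, 0.00722). Without a filter SNAI2 passed in both lines, ZEB2 in Hs578T (0.51, 0.00691) and ZEB1 in MDA-MB-231 (0.46, 0.00169).

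Values that turned sign with 1 library left out were SNAI1 in Hs578T (0.036 and 0.015, over a range of -0.17 to 0.036), in MDA-MB-231 (from -0.051 to 0.34) and averaged (from -0.059 to 0.13), and, for the difference between lines, ZEB2 (from -0.082 to 0.34), SNAI2 (from -0.22 to 0.055) and VIM (from -0.092 to 0.024). The replicate block gave -0.093 for ZEB2. No scaling turned the direction of a member. On library size alone 4 of 150 group means moved beyond 1 SD, those of VIM in 3 groups and of ZEB1 in Hs578T CD44 WT. GRHL2 and OVOL1, with at most 3 counts in a group, and PRRX1 in MDA-MB-231 CD44 WT are limited by depth.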

Other observations

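The following values were looked at after the results were seen. TWIST1 has 3 tested neighbours within 1 Mb. HDAC9, a histone deacetylase whose annotated edge lies 18.6 kb from that of TWIST1, read 0.832, 0.823 and 0.508 CPM in Hs578T CD44 WT and 77.7, 102 and 85.0 CPM in CD44 KO (log2 fold change 6.90 ± 0.30, adjusted p = 3.00e-09 by edgeR). In MDA-MB-231, where TWIST1 had 0 counts, HDAC9 read 19.6, 37.3 and 39.7 CPM in CD44 WT and 55.3, 53.7 and 47.8 CPM in CD44 KO (0.70 ± 0.19, adjusted p = 0.0299). POLR1F and RPL21P75, farther away, stood at -0.073 and -0.081 in Hs578T and neither was called there. In MDA-MB-231 POLR1F was called higher (0.57, adjusted p = 0.00664 by edgeR) and RPL21P75, at -0.15, was not called.

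Along chromosome 10 the shift in MDA-MB-231 CD44 KO was uneven in 20 Mb windows measured from the start of VIM. The median log2 fold change was 0.043 over 28 genes from -30 to -10 Mb, 0.44 over 69 genes from -10 to 10 Mb, 0.29 over 70 genes from 10 to 30 Mb and 0.50 over 35 genes from 30 to 50 Mb. It then was 0.16 over 99 genes from 50 to 70 Mb and -0.083 over 144 genes from 70 to 90 Mb. In Hs578T the medians of the same windows lay between 0.023 and 0.12.

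Of the 4 endothelial markers 3 were tested, and 1 was called in each line. This was KDR, the main receptor for vascular endothelial growth factor, called higher after CD44 KO in both lines. Its log2 fold change was 4.04 ± 0.57 in Hs578T (adjusted p = 2.01e-04 by edgeR) and 1.00 ± 0.22 in MDA-MB-231 (adjusted p = 0.00985). Of the basal markers TP63 fell by 4.08 ± 0.36 (adjusted p = 7.00e-06) and KRT17 fell by 1.95 ± 0.44 (adjusted p = 0.00727) in Hs578T. Of the 5 luminal markers in MDA-MB-231, 2 were called higher by edgeR, GATA3 (1.05 ± 0.21, adjusted p = 0.00464) and FOXA1 (0.98 ± 0.20, adjusted p = 0.00623). By edgeR 0 were called lower, while DESeq2 called 1 lower, and 3 were lower at an unadjusted edgeR p under 0.05. GATA3 lies on chromosome 10 at -9.18 Mb from VIM, in the window above with a median of 0.44. The summed list, made up mostly of KRT8, KRT18 and KRT19, went from between 1177 and 1467 CPM to between 946 and 1087 CPM. No marker was read as the presence of another cell type.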
